A study of Bos taurus with 138 samples.

Results

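The SLC25 family of mitochondrial carriers was followed through bovine oocytes and preimplantation embryos, in the RNA bound by many ribosomes and in the whole transcriptome. The members were the rows of the count table whose symbol is SLC25A followed by a number, which gave 45 of 16706 gene symbols. Sucrose gradients had been run on lysates at 6 stages, GV oocyte, MII oocyte, 2-cell embryo, 8-cell embryo, morula and blastocyst, and each gradient was cut into 10 fractions, F1 at the top to F10 at the bottom. There were 2 gradients (A and B) and 3 whole-cell transcriptomes (A, B and C) per stage. The oocytes came from slaughterhouse ovaries and were pooled, the MII oocytes were matured in vitro, and the embryos were made by in vitro fertilisation with semen of 1 Holstein bull and grown in vitro, so every group is a pool of animals under culture conditions. All material was freed of cumulus cells and zona, and was held in cycloheximide, which stalls ribosomes on the mRNA, before lysis. No group was otherwise treated. F1 and F2 hold free RNA, F3 to F5 single ribosomes and F8 to F10 heavy polysomes, mRNA with many ribosomes. For each gradient, F8 to F10 were added up, and such a sum is called a pool. The authors call the replicates biological and the labels state no animals, so a p-value measures the spread between these libraries.

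Mitochondrial carriers are nuclear-encoded proteins of the inner mitochondrial membrane that exchange ADP for ATP and carry phosphate, carboxylates, amino acids, nucleotides, cofactors and other solutes in and out of the matrix. They are made on cytosolic ribosomes and are imported through the TOM and TIM22 complexes. Oocytes hold a large stock of mitochondria that is divided among the cells of the cleaving embryo, which relies on pyruvate and oxidative phosphorylation before glucose use rises towards the blastocyst.

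Library totals were 3269386 to 11812567 expected counts for the transcriptomes, with blastocyst transcriptomes lowest, and 22543733 to 39380640 for the pools. Levels are CPM, counts scaled to a common library total with TMM factors, so each level is a share of the RNA in its own library, and levels were not compared between genes because transcript lengths were not used. The 8 oocyte markers summed to 18255 to 21359 CPM in GV transcriptomes and 38.6 to 133 CPM in blastocyst transcriptomes. The 8 blastocyst markers summed to 206 to 209 and 4967 to 5676 CPM in the same stages. Markers of cumulus and granulosa cells, 12 genes, summed to 525 to 656 CPM in GV transcriptomes, with none of them at 0 in every library, to 915 to 953 CPM in GV pools, and to 16.8 to 37.1 CPM in morula pools. They also summed to 604 to 981 CPM in MII pools, 778 to 1072 CPM in 2-cell pools and 170 to 533 CPM in 8-cell transcriptomes. Their part in the results was not tested. In 8-cell embryos 10 of 41 members, and in morulae 9, differed by over 4-fold between the pools of gradients A and B (after adding 0.5 CPM), against 26.1% and 23.1% of all genes tested, while at the other stages 1 or 2 members did. No more than 1 member differed as much among the transcriptomes of any stage.

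Of the 45 carriers, 41 passed the filter on low counts and were tested with 14612 genes in all. In pools against transcriptome, 14 of the 41 were higher and 3 lower in GV oocytes, where 22.2% of all genes tested were higher and 17.7% lower (edgeR quasi-likelihood test, adjusted p below 0.05). In MII oocytes 13 carriers were higher and 9 lower, beside 30.8% and 26.7% of all genes. In 2-cell embryos 19 were higher and 5 lower (29.1% and 21.9% of all genes), and in 8-cell embryos 17 were higher and 10 lower (28% and 31%). In morulae 18 were higher and 5 lower (26.5% and 25.2%), and in blastocysts 15 were higher and 3 lower (20% and 20.1%). The median log2 fold change of the 41 carriers was 0.39, -0.25, 0.61, 0.10, 1.03 and 0.93 from GV to blastocyst, and the same with carriers that had no count in 1 group set at their bound. Over all genes tested it was 0, 0, 0.18, -0.26, 0 and -0.08. A fold change of this kind compares 2 shares of RNA, so a carrier can be higher in pools while its amount per embryo is lower.

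The same 11 carriers were higher in the pools at all 6 stages, among them SLC25A1, SLC25A4, SLC25A6, SLC25A11, SLC25A20, SLC25A22, SLC25A23, SLC25A26, SLC25A38 and SLC25A39. These were 26.8% of the 41 tested, and 9.92% of all genes tested were higher at all 6 stages. SLC25A17 was lower at all 6, as were 5.78% of all genes. A further 10 carriers were higher at 1 to 5 stages and never lower (24.4%, against 27.7% of all genes), and 12 were lower at 1 to 5 stages and never higher (29.3%, against 35.8%). SLC25A3, SLC25A5 and SLC25A41 were higher at one stage and lower at another (7.32%, against 7.53%). SLC25A12, SLC25A13, SLC25A14 and SLC25A30 passed the test at none (9.76%, against 13.2%). No difference between these shares was tested. By substrate class, 3 of 4 carboxylate carriers were higher at every stage, and so were 2 to 4 of 7 amino acid carriers, none of which was lower at any. Of the 9 cofactor and nucleotide carriers, 2 or 3 were higher and 1 to 4 lower at each stage. Over all genes 20% to 30.8% were higher and 17.7% to 31% lower by stage. The cofactor count of higher carriers thus lay near the background, and so did the lowest amino acid count, 2 of 7.

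**Figure D1:**
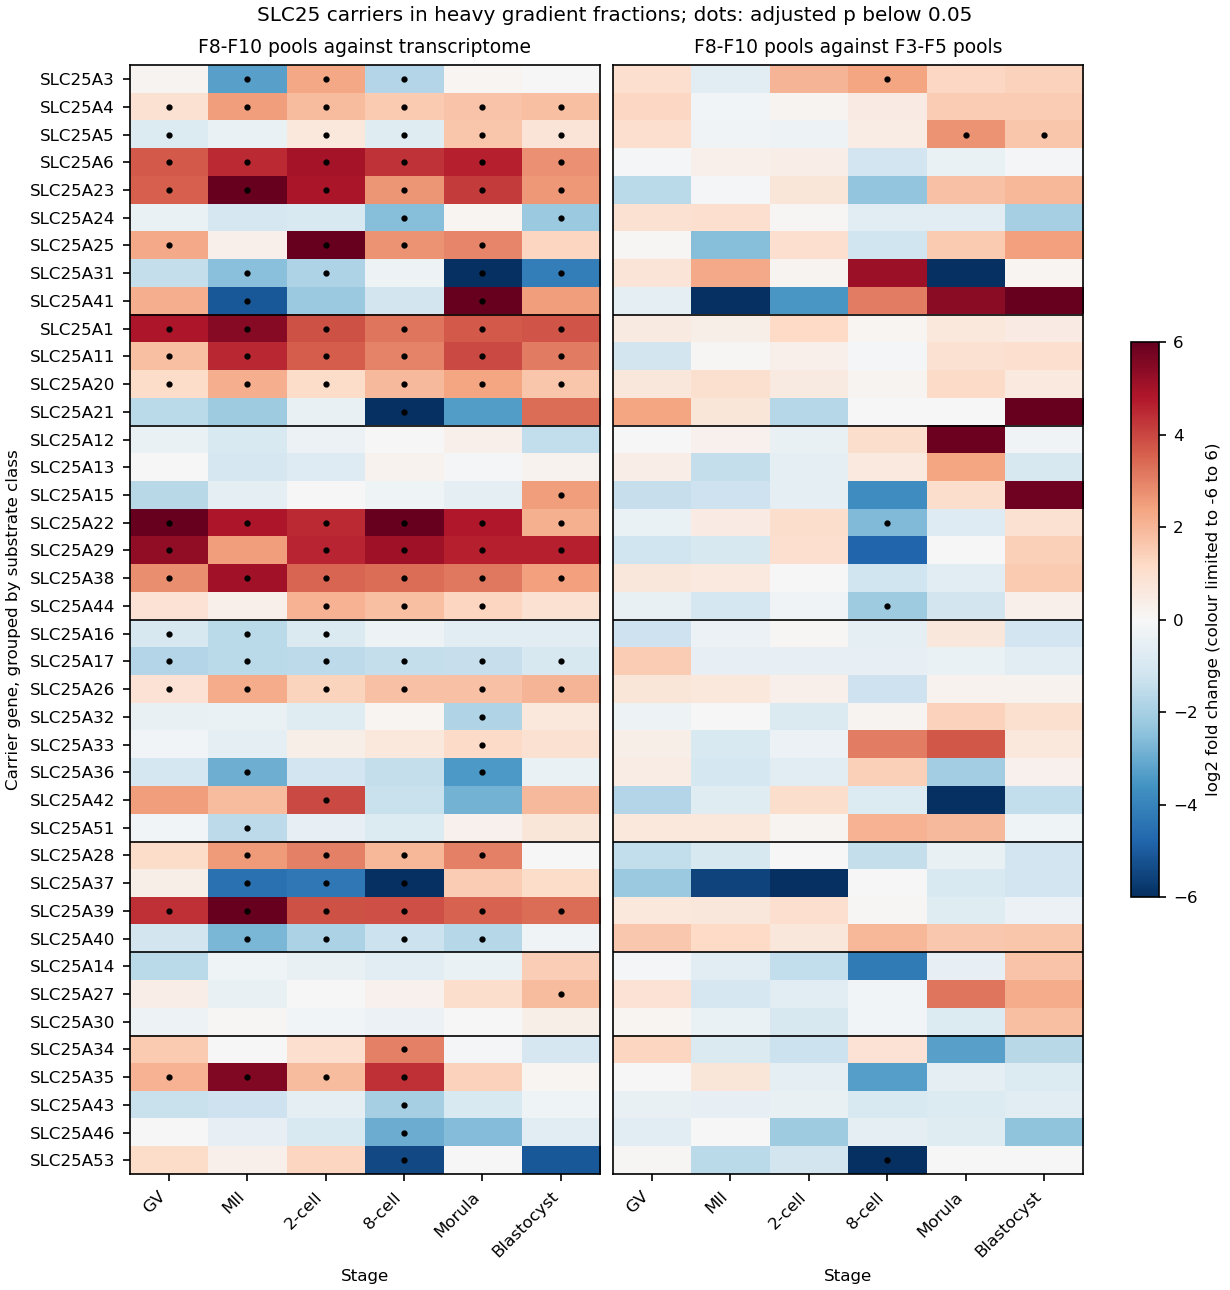
Log2 fold change of 40 of the 41 tested SLC25 carriers (rows, grouped by substrate class) at 6 stages (columns), for F8-F10 pools against transcriptome on the left and for F8-F10 against F3-F5 pools on the right, with colour limited to 6 in either direction and dots for adjusted p below 0.05. The left panel holds rows of dots at all 6 stages for 10 carriers higher and 1 lower, while the right panel has 6 dots in all; strong colours without a dot, and blocks where a group has no counts, are fitted values with wide errors.

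Among the carboxylate carriers, SLC25A1, the citrate carrier that feeds cytosolic acetyl-CoA, stood at 11.2, 9.23 and 6.89 CPM in the GV transcriptomes and at 225 and 309 CPM in the GV pools. In MII oocytes its transcriptomes were at 8.01, 5.07 and 3.57 CPM and its pools at 228 and 263 CPM, and in blastocysts they were at 21.5, 31.3 and 30.01 and at 379 and 387 CPM. Both pools lay far above all 3 transcriptomes in each case. The log2 fold change was 4.87 ± 0.42 (SE, adjusted p = 3.60e-09) at GV, 5.46 ± 0.43 at MII, its highest, and 3.79 ± 0.40 (adjusted p = 9.66e-08) at blastocyst. SLC25A11, the oxoglutarate carrier of the malate-aspartate shuttle, had GV transcriptomes of 90.8, 47.3 and 68.7 CPM and GV pools of 209 and 273 CPM. In MII oocytes its transcriptomes were 20.0, 17.7 and 9.64 CPM and its pools 421 and 316 CPM, so the groups lay further apart than at GV (log2 fold changes 1.80 ± 0.35 and 4.54 ± 0.38). SLC25A20, which brings acylcarnitines in for fatty acid oxidation, had 40.1, 41.6 and 55.7 CPM in morula transcriptomes and 288 and 182 CPM in the pools (log2 fold change 2.36 ± 0.29). Its log2 fold change was smaller at GV, 1.09 ± 0.29, and that call was lost without GV gradient B. SLC25A21, an oxodicarboxylate carrier, had no count in the 8-cell pools and 0.428, 0.627 and 0.261 CPM in the transcriptomes, which makes the pools at least 3.57-fold lower, taking 3 counts per library as the floor. That call was lost without either 8-cell gradient, and its bound takes the few transcriptome counts as exact.

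Amino acid carriers included the largest difference in GV oocytes. SLC25A22, a glutamate carrier, was at 2.81, 2.67 and 3.75 CPM in GV transcriptomes and at 177 and 251 CPM in the pools, a 69.5-fold difference (log2 6.12 ± 0.62, adjusted p = 3.54e-08). In 8-cell embryos it stood at 1.54, 1.34 and 2.52 CPM against 90.4 and 170 CPM (log2 6.17 ± 0.63, adjusted p = 1.99e-08). In morulae it stood at 2.71, 1.52 and 0.539 CPM against 16.9 and 73.7 CPM (log2 4.82 ± 0.60, adjusted p = 6.67e-07). The pools were above all transcriptomes at these stages, which was a condition for describing it there, and the 2 morula pools differed widely. SLC25A29, a carrier of basic amino acids, had 0.456, 0.513 and 0.405 CPM in GV transcriptomes and 11.1 and 26.4 CPM in the pools (log2 5.34 ± 1.53, adjusted p = 0.00742). In blastocysts the values were 0.588, 1.45 and 0.600 CPM against 22.6 and 23.1 CPM (log2 4.67 ± 1.52, adjusted p = 0.0169), and the blastocyst call was lost without transcriptome A or without transcriptome C. Its 8-cell pools disagreed, with 0 CPM in gradient A and 21.7 CPM in gradient B. SLC25A38, the glycine carrier of heme synthesis, had log2 fold changes between 2.48 ± 0.34 in blastocysts and 5.02 ± 0.37 in MII oocytes. The 2 aspartate and glutamate carriers of the malate-aspartate shuttle passed the test at no stage. SLC25A12 (aralar) had 88.4, 119 and 93.2 CPM in 8-cell transcriptomes and 168 and 28.4 CPM in the pools, so its pools lay on both sides of the transcriptomes. SLC25A13 (citrin) had 51.3, 63.6 and 45.1 CPM in GV transcriptomes and 65.4 and 42.4 CPM in the pools, again overlapping.

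Iron and glutathione carriers split within their class. SLC25A39, a mitochondrial glutathione importer, had 4.01, 4.06 and 3.21 CPM in MII transcriptomes and 423 and 250 CPM in MII pools (log2 fold change 6.48 ± 0.45, adjusted p = 2.19e-11), the largest of any carrier in MII oocytes. At GV its transcriptomes were 29.5, 14.97 and 19.97 CPM and its pools 390 and 504 CPM (log2 4.38 ± 0.40). SLC25A40, which shares that role, lay on the other side: its MII transcriptomes were 30.9, 34.3 and 36.6 CPM and its pools 5.76 and 4.22 CPM (log2 -2.76 ± 0.48, adjusted p = 3.00e-05). In 2-cell embryos SLC25A40 had 31.5, 34.6 and 20.6 CPM against 10.2 and 5.08 CPM (log2 -1.92 ± 0.46, adjusted p = 0.00123). It was also lower in 8-cell and morula pools, the first call being lost without 8-cell gradient B or 8-cell transcriptome C, and it was not called in GV oocytes or blastocysts. Both pools lay below all 3 transcriptomes in MII oocytes and 2-cell embryos.

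The mitoferrins, which import iron, differed in time. SLC25A28 (mitoferrin 2) had 1.14, 2.88 and 2.56 CPM in 2-cell transcriptomes and 19.3 and 16.3 CPM in the pools (log2 fold change 3.02 ± 0.62), and was higher in pools from MII to morula, the MII call being lost without gradient A. SLC25A37 (mitoferrin 1) had no count in the pools of MII oocytes, 2-cell embryos and 8-cell embryos. Its 8-cell transcriptomes held 7.54, 1.43 and 2.61 CPM, so the pools were at least 31.4-fold lower, and at the 2 earlier stages it was near the floor in the transcriptomes too. In morulae its pools held 8.05 and 19.0 CPM and its transcriptomes 6.35, 3.84 and 3.77 CPM, and the pools were then not called different from the transcriptomes.

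Cofactor carriers held the one member that was lower in the pools throughout. SLC25A17, a carrier of the peroxisomal membrane for coenzyme A and related cofactors, had 554, 740 and 687 CPM in GV transcriptomes and 190 and 204 CPM in GV pools (log2 fold change -1.74 ± 0.35, adjusted p = 0.000293). Its log2 fold change stayed between -1.60 and -0.94 at the other stages, and in blastocysts its values were 62.3, 65.3 and 45.02 CPM against 24.2 and 35.7 CPM. Its pools were below its transcriptomes at both stages. SLC25A26, the importer of S-adenosylmethionine, had 126, 116 and 160 CPM in MII transcriptomes and 560 and 681 CPM in the pools (log2 2.21 ± 0.34). Its smallest difference was at GV, 210, 296 and 212 CPM against 420 and 450 CPM (log2 0.86 ± 0.34, adjusted p = 0.0450), a call lost with RLE size factors, with DESeq2, without either gradient and without GV transcriptome A or C. SLC25A16, linked to coenzyme A, had 46.9, 43.3 and 42.2 CPM in GV transcriptomes and 19.9 and 25.5 CPM in the pools (log2 -0.96 ± 0.36, adjusted p = 0.0346), and this call was lost when any 1 of the 5 GV libraries was left out. SLC25A36, a pyrimidine nucleotide carrier, had 54.1, 94.6 and 111 CPM in morula transcriptomes and 1.25 and 14.4 CPM in the pools (log2 -3.46 ± 0.79, adjusted p = 0.000912). The pools of SLC25A36 were below all transcriptomes, which was a condition for describing it here, and they differed from each other by more than 4-fold.

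Uncoupling protein-like carriers were called once in 18 tests, over 3 members and 6 stages. Over all genes 20% to 30.8% were higher and 17.7% to 31% lower by stage, and the difference from these shares was not tested. The call was that of SLC25A27 (UCP4), which had 2.65, 1.45 and 1.80 CPM in blastocyst transcriptomes and 6.61 and 7.79 CPM in the pools (log2 fold change 1.88 ± 0.56). Of the 5 tested members with no substrate assigned here, SLC25A35 was higher in pools at 4 stages, with MII transcriptomes of 5.61, 5.17 and 4.04 CPM and MII pools of 253 and 206 CPM (log2 5.54 ± 0.88). In 8-cell embryos its pools disagreed, at 80.3 CPM in gradient A and 1.30 CPM in gradient B.

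Pooling F9 and F10 in place of F8 to F10 ended, among the carriers described by library, the calls against the transcriptome of SLC25A5, SLC25A16, SLC25A20 and SLC25A26 at GV, SLC25A41 at MII, SLC25A3, SLC25A5, SLC25A20 and SLC25A40 at 2-cell, SLC25A5 and SLC25A40 at 8-cell, SLC25A40 in morulae and SLC25A24 in blastocysts. Without the filter on low counts the calls of SLC25A16 at GV, SLC25A37 at MII and SLC25A5 at 2-cell and 8-cell were lost.

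The lighter fractions of the 11 carriers are described beside F8 to F10 without a test, because the carriers were chosen for lying above the same transcriptomes and every ratio shares that denominator. In their 66 combinations of carrier and stage, the mean of F3 to F5 lay above the transcriptome mean in 62 (93.9%) and the mean of F1 and F2, the free RNA, in 59 (89.4%), with levels scaled over all libraries. Over all genes tested these shares were 46.4% and 44.2%, and over the 1449 genes that were higher in pools at all 6 stages they were 96% and 92.6%, so the carriers were close to other genes chosen in the same way. Their median ratio to the transcriptome was 8.15 for F8 to F10, 6.75 for F3 to F5 and 3.87 for F1 and F2, against 7.80, 6.93 and 6.43 for those 1449 genes. SLC25A6 had median ratios of 16.7, 15.5 and 27.8 in that order, and SLC25A22 had 20.8, 32.5 and 29.5. For SLC25A4 the ratios were 2.49, 1.28 and 1.45. By stage, the median ratio in F1 and F2 ran from 19.2 in MII oocytes to 1.07 in blastocysts. In F8 to F10 it was 21.0 and 4.53 at these stages. At GV the free RNA had the highest median ratio, 8.16, against 6.14 in F3 to F5 and 5.87 in F8 to F10. In 8-cell embryos F3 to F5 had the highest, 11.3, against 7.42 in F8 to F10 and 5.56 in F1 and F2. F8 to F10 had the highest in MII oocytes, 2-cell embryos, morulae and blastocysts. Fraction libraries and transcriptomes differ in input and handling as well as in ribosomes, and these cannot be told apart in the comparison with the transcriptome. SLC25A17 was below the transcriptome in light fractions too: at GV it averaged 739 CPM in the transcriptome, 100 CPM in F1 and F2, 64.6 CPM in F3 to F5 and 189 CPM in F8 to F10 on this scale.

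**Figure D2:**
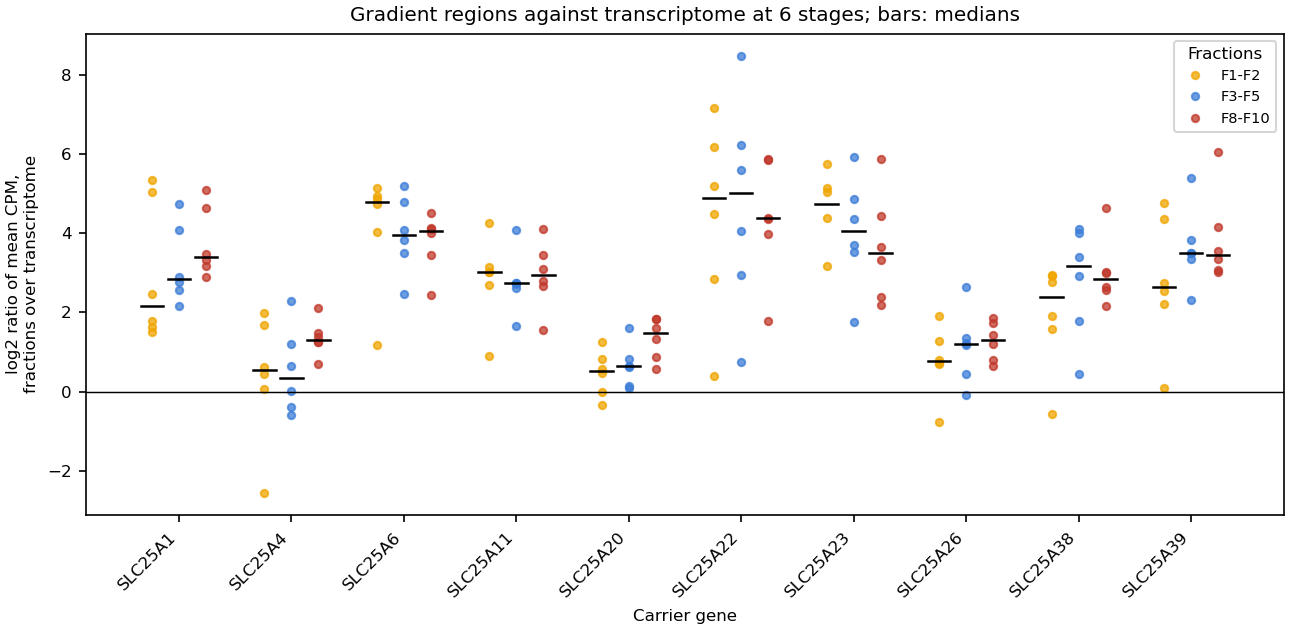
Log2 ratio of the mean CPM in F1-F2, F3-F5 and F8-F10 to the mean of 3 transcriptomes, for 10 of the 11 carriers higher in pools at all 6 stages; each point is a stage (mean of the libraries of 2 gradients) and each bar the median over stages. Points of F1-F2 and F3-F5 lie above the line at 0 in 54 and 57 of the 60 cases of these carriers, which were chosen for their ratio in F8-F10 to the same transcriptomes (92.6% and 96% for all genes chosen that way); SLC25A23 in blastocyst F1-F2, at 0 CPM, is not drawn.

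The pools of F8 to F10 were also compared with pools of F3 to F5 from the same gradients, a comparison added after the data were seen, with 42 carriers among 14873 genes and the gradient as a block. No carrier was called in GV, MII or 2-cell samples (edgeR quasi-likelihood test; 5, 0 and 5 had an unadjusted p below 0.05, the likelihood ratio test called 0 at each, and DESeq2 called 1, 0 and 1). Among all genes 0.202% were higher and 0.0672% lower at GV, 0.121% and 0.0807% at MII, and 0% either way at 2-cell. In 8-cell embryos 1 carrier was higher and 3 lower in the heavy pools, where 4.06% of all genes were higher and 4.68% lower. In morulae and in blastocysts 1 carrier was higher and none lower, beside 0.518% and 0.894% of all genes at the first of these stages and 0.639% and 0.672% at the second. The 8-cell count fell to 0 without gradient A, the morula count was 0 without gradient A and 5 without gradient B, and the blastocyst count was 0 without either gradient.

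In 8-cell embryos SLC25A3, the phosphate carrier, had 79.3 and 115 CPM in F8 to F10 and 16.1 and 20.9 CPM in F3 to F5 (log2 fold change 2.38 ± 0.41, adjusted p = 0.0161). SLC25A22 was distributed the other way, at 82.3 and 151 CPM in the heavy and 832 and 607 CPM in the light pools (log2 -2.67 ± 0.48, adjusted p = 0.0161). SLC25A44, a carrier of branched-chain amino acids, had 66.6 and 125 CPM in the heavy and 285 and 570 CPM in the light pools (log2 -2.14 ± 0.55, adjusted p = 0.0391). So 2 of the amino acid carriers that were well above the transcriptome in 8-cell heavy pools were higher still in F3 to F5. For SLC25A22 this was not particular to the fractions of single ribosomes. With levels scaled over all libraries, it averaged 290 CPM in the free RNA of F1 and F2 and 729 CPM in F3 to F5. It averaged 381 CPM in F6 and F7, 117 CPM in F8 to F10 and 2.04 CPM in the transcriptome. SLC25A53, whose substrate is not assigned here, had no count in the heavy and 16.2 and 13.1 CPM in the light pools, so the heavy pools were at least 131-fold lower. SLC25A5, an ADP/ATP carrier, was higher in the heavy pools of morulae, at 1436 and 1483 CPM against 183 and 280 CPM (log2 2.69 ± 0.34, adjusted p = 0.0214), and of blastocysts, at 2246 and 2362 CPM against 746 and 697 CPM (log2 1.68 ± 0.33, adjusted p = 0.0452). In blastocysts RLE size factors also ended the SLC25A5 call.

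**Figure D3:**
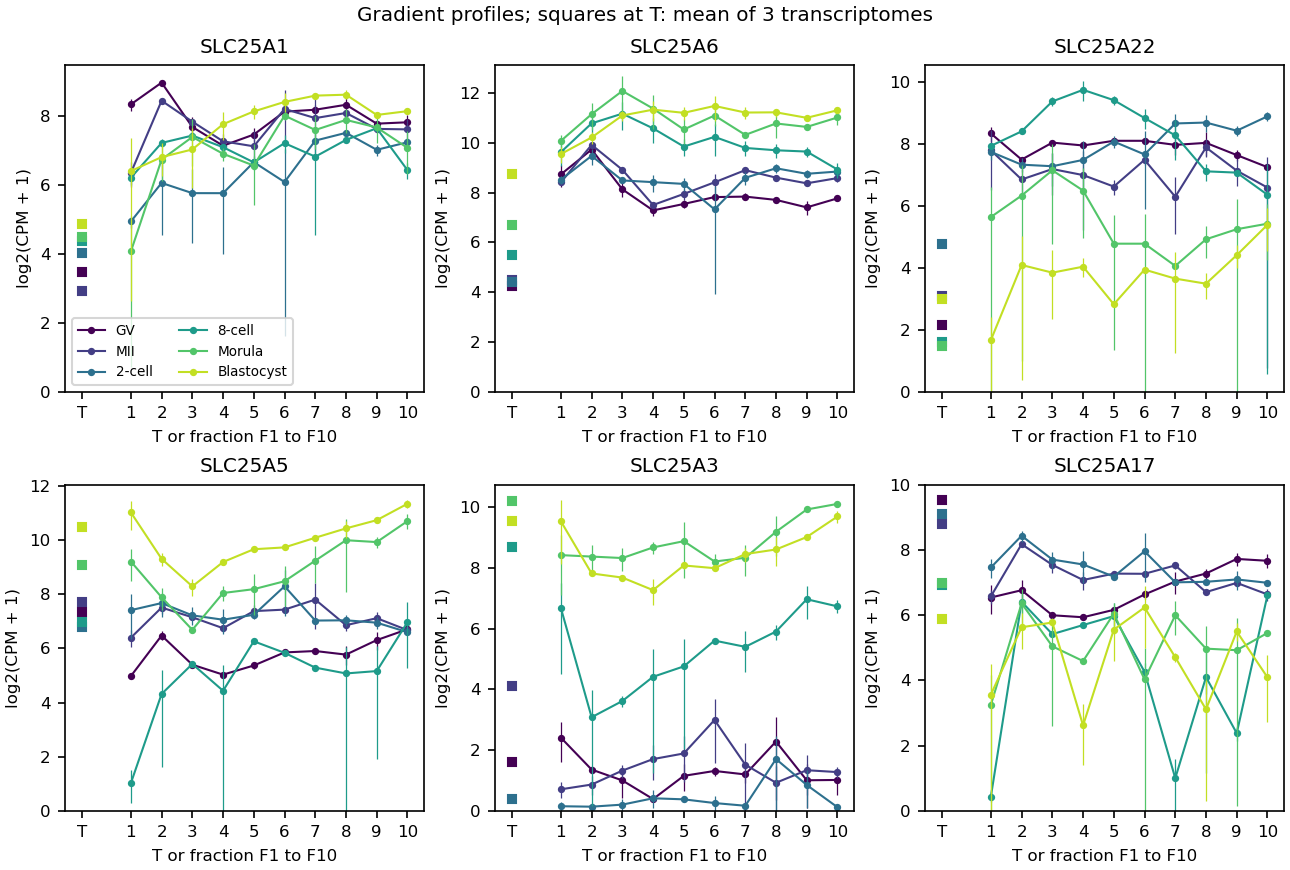
Levels of 6 SLC25 carriers along the gradient as log2(CPM + 1), scaled over all libraries; points are means of gradients A and B, vertical lines join the 2 gradients, colours are stages and squares at T are means of 3 transcriptomes. Within F3 to F10, SLC25A5 and SLC25A3 are highest at F10 in morulae and blastocysts, SLC25A22 peaks at F4 in 8-cell embryos, SLC25A1 and SLC25A6 lie above their squares in all fractions drawn at GV and MII, and SLC25A17 lies below its squares at those stages.

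The 4 ADP/ATP carriers, which exchange matrix ATP for cytosolic ADP, followed different courses. SLC25A31 (ANT4), the form of germ cells, had 91.3, 71.4 and 126 CPM in GV transcriptomes, 196, 183 and 236 CPM at MII, 81.1, 94.3 and 69.3 CPM at 2-cell, 8.40, 12.6 and 17.9 CPM at 8-cell, 3.08, 5.19 and 10.9 CPM in morulae and 1.76, 1.87 and 4.60 CPM in blastocysts. Its pools had 39.8 and 30.5, 29.5 and 41.7, 24.7 and 20.6, 16.9 and 4.23, 0 and 0, and 0 and 0.298 CPM at the same stages. Both series were thus low from the morula on, and every pool was below all transcriptomes of its stage except in 8-cell embryos, where the groups overlapped. The morula pools were at least 44.1-fold below the morula transcriptomes and at least 72.9-fold below the 8-cell pools. The 2-cell difference (log2 fold change -1.85 ± 0.64, adjusted p = 0.0192) was lost without either gradient, whereas that of blastocysts was -4.15 ± 0.85 (adjusted p = 0.000470). In the transcriptome SLC25A31 fell by 2.65 ± 0.57 on the log2 scale from 2-cell to 8-cell embryos.

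SLC25A5 (ANT2), the form of proliferating cells, and SLC25A6 (ANT3), broadly expressed, had their highest levels in blastocysts. SLC25A5 transcriptomes were at 150, 115 and 72.3 CPM in 8-cell embryos, 408, 651 and 406 CPM in morulae and 1265, 1507 and 1437 CPM in blastocysts. Its pools were at 73.3 and 63.4, 1422 and 1688, and 2324 and 2401 CPM at the same stages. From 8-cell to morula the log2 change was 2.12 ± 0.24 (adjusted p = 1.97e-06) in the transcriptome and 4.51 ± 0.32 (adjusted p = 1.94e-09) in the pools, and the difference between these changes was 2.39 ± 0.37 (adjusted p = 0.000167). SLC25A5 pools were below the transcriptomes at GV (77.7 and 84.7 against 144, 155 and 138.3 CPM, log2 -0.84 ± 0.26), a call lost without either gradient, and above them in morulae (log2 1.67 ± 0.25). Its calls in 2-cell embryos, 8-cell embryos and blastocysts were each lost under leave-one-out fits, without any 1 of the 2-cell libraries, without 8-cell gradient B or transcriptome A, and without either blastocyst gradient or transcriptome A, and RLE size factors ended the 2-cell and blastocyst calls.

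SLC25A6 was higher in the pools at every stage, with 16.8, 12.5 and 18.2 CPM in 2-cell transcriptomes and 520 and 506 CPM in 2-cell pools (log2 fold change 5.01 ± 0.35, adjusted p = 1.84e-10). Its transcriptomes were at 64.4, 25.7 and 28.4 CPM in 8-cell embryos, 108, 102 and 69.1 CPM in morulae and 512, 307 and 451 CPM in blastocysts. The pools of those stages held 857 and 716, 2448 and 2226, and 2655 and 3100 CPM, so the pools were at their high level already in morulae. From morula to blastocyst the log2 change was 2.18 ± 0.30 (adjusted p = 1.06e-05) in the transcriptome, was not called in the pools, and differed between the 2 by -1.88 ± 0.46 (adjusted p = 0.00989). SLC25A4 (ANT1), the form of heart and muscle, varied least of the 4. Its transcriptomes were 77.1, 71.6 and 65.0 CPM at GV, 38.6, 34.2 and 28.2 CPM at MII, 48.8, 42.4 and 52.7 CPM at 2-cell, 112, 84.6 and 97.9 CPM at 8-cell, 70.2, 65.0 and 77.6 CPM in morulae and 57.0, 57.0 and 70.8 CPM in blastocysts. They were lowest at MII and highest at 8-cell, with called changes from GV to MII (log2 -1.08 ± 0.26) and from 2-cell to 8-cell (log2 1.03 ± 0.26), and the second call was lost with RLE size factors, with DESeq2, without the filter on low counts and without 2-cell transcriptome B or 8-cell transcriptome A. Its pools were 99.2 and 172 CPM at GV, 174 and 206 CPM at MII and 248 and 179 CPM in blastocysts, above the transcriptomes each time, and the GV call (log2 0.93 ± 0.28) was lost without gradient B. A blastocyst holds trophectoderm and inner cell mass, and in bulk samples fewer cells of a type and less RNA per cell cannot be told apart.

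**Figure D4:**
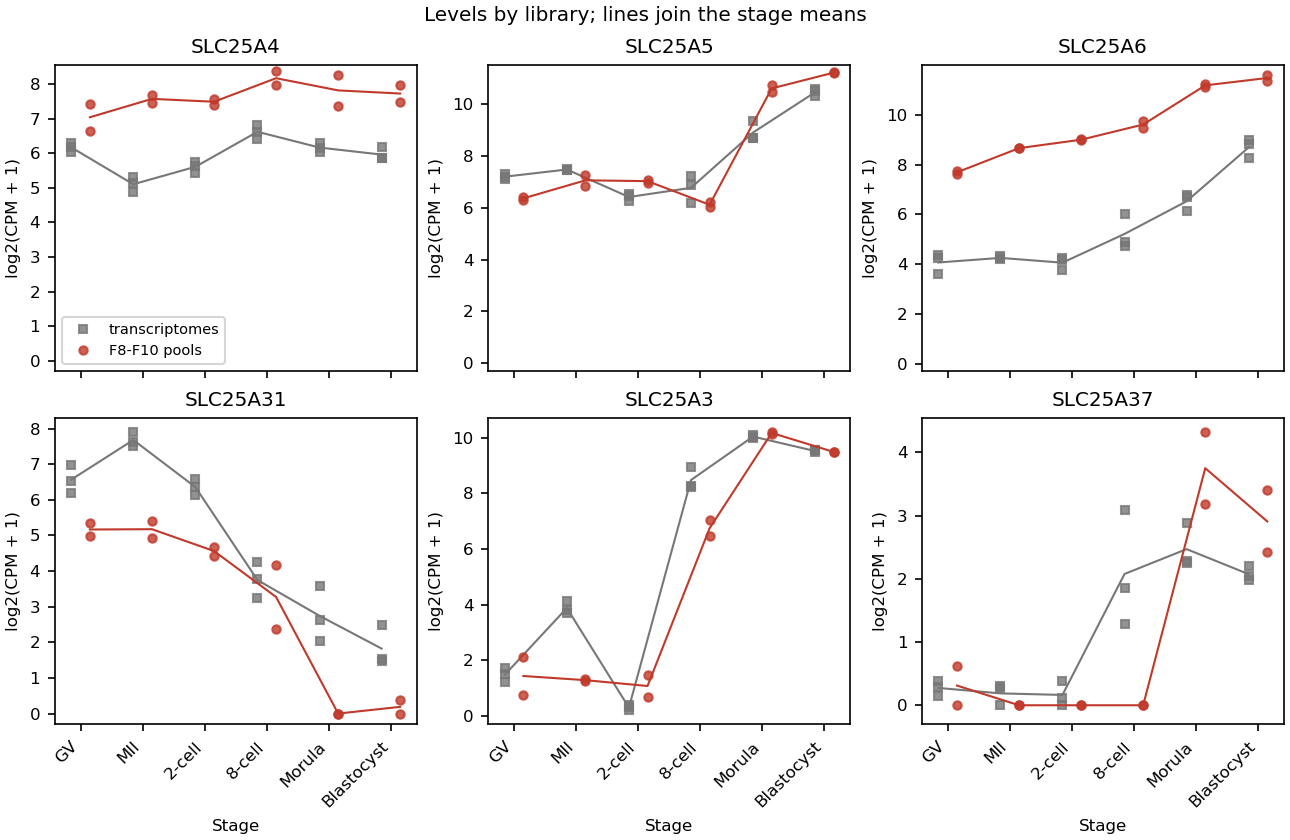
Levels of SLC25A4, SLC25A5, SLC25A6, SLC25A31, SLC25A3 and SLC25A37 at 6 stages as log2(CPM + 1); grey squares are the 3 transcriptomes, red circles the 2 F8-F10 pools, and lines join the means of the log values. SLC25A31 falls to 0 in both morula pools, SLC25A5 and SLC25A6 reach 2324 to 3100 CPM in blastocyst pools, and SLC25A3 goes from below 2 CPM in the 2-cell libraries to between 1007 and 1170 CPM in the 5 morula libraries.

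The phosphate carrier SLC25A3, which supplies the phosphate for ATP synthesis, went from the lowest to the highest levels within the first 5 stages. Its transcriptomes stood at 2.28, 1.85 and 1.32 CPM in GV oocytes, 12.8, 16.6 and 12.01 CPM in MII oocytes and 0.304, 0.240 and 0.150 CPM in 2-cell embryos. They stood at 487, 301 and 307 CPM in 8-cell embryos, 1043, 1106 and 1007 CPM in morulae and 743, 748 and 707 CPM in blastocysts. The groups of consecutive stages did not overlap. Its pools were at 3.35 and 0.676, 1.48 and 1.39, 0.612 and 1.75, 87.1 and 130, 1170 and 1133, and 718 and 716 CPM, with overlap among the first 3 stages only. From 2-cell to 8-cell the log2 change was 10.58 ± 0.59 (adjusted p = 3.71e-12) in the transcriptome and 6.52 ± 0.57 (adjusted p = 8.47e-09) in the pools. The MII pools lay below the MII transcriptomes (log2 fold change -3.26 ± 0.48, adjusted p = 3.83e-06), the 2-cell pools above (log2 2.31 ± 0.58), a call lost without gradient B, and the 8-cell pools below (log2 -1.75 ± 0.43). In morulae and blastocysts the 2 did not pass the test for a difference.

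The calcium-regulated ATP-Mg/phosphate carriers, which adjust the adenine nucleotide content of the matrix, did not move together. SLC25A23 was higher in the pools at all stages, with 0.114, 0.507 and 0.714 CPM in MII transcriptomes and 50.04 and 22.6 CPM in MII pools (log2 fold change 6.33 ± 0.89, adjusted p = 1.82e-06). SLC25A25 had no count in the 2-cell transcriptomes and 2.84 and 0.831 CPM in the pools, at least 7.64-fold higher, and then stood at 3.51, 10.7 and 4.96 CPM in 8-cell transcriptomes and 24.03 and 58.4 CPM in 8-cell pools. The 8-cell transcriptomes of SLC25A25 were at least 26.6-fold above the 2-cell ones. SLC25A24 was lower in the pools of 8-cell embryos and blastocysts, where it had 5.88, 13.1 and 10.2 CPM in transcriptomes and 0.653 and 3.49 CPM in pools (log2 -2.23 ± 0.63, adjusted p = 0.00716), and the blastocyst call was lost without gradient A. SLC25A41, another ATP-Mg/phosphate carrier, had 14.9 and 2.65 CPM in morula pools and 1 count over the 3 transcriptomes, a ratio of 273 with a counting interval of 49.1 to 10799.9. In MII oocytes its pools held no count and its transcriptomes 0.114, 0.101 and 0.476 CPM, near the floor as well. The pools were at least 2.13-fold lower if the transcriptome mean is taken as exact. That call was lost without either gradient or without transcriptome C.

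Changes between consecutive stages were called at adjusted p below 0.05 and a fold above 2, and neighbouring transitions share the stage between them. In the transcriptome, 3 carriers rose and 6 fell from GV to MII (6.61% and 10.5% of all genes), 5 rose and 4 fell from MII to 2-cell (6% and 5.96%), 12 rose and 11 fell from 2-cell to 8-cell (26.6% and 23.5%), 3 rose and 4 fell from 8-cell to morula (6.6% and 7.75%), and 5 rose and 3 fell from morula to blastocyst (10.2% and 11.4%). The 9 calls from GV to MII became 5 without GV transcriptome A or MII transcriptome B and 4 without MII transcriptome C. The 9 from MII to 2-cell became 4 without MII transcriptome B or C and 2 without 2-cell transcriptome C, and the 8 from morula to blastocyst became 3 without morula transcriptome C. In all, 33 of the 41 carriers (80.5%) changed in the transcriptome in at least 1 transition and 27 (65.9%) in the pools, beside 67.5% and 69.8% of all genes.

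In the pools no carrier was called from GV to MII, where 3.03% of all genes rose and 2.33% fell. There 10 carriers had an unadjusted p below 0.05 in the edgeR quasi-likelihood test, and the likelihood ratio test called 3 and DESeq2 2. From MII to 2-cell 2 rose and none fell (3.37% and 5.14% of all genes), from 2-cell to 8-cell 6 rose and 9 fell (21% and 25.2%), from 8-cell to morula 7 rose and 6 fell (18.5% and 17.7%), and from morula to blastocyst 2 rose and 1 fell (5.79% and 8.13%). Without 8-cell gradient B, the 15 calls from 2-cell to 8-cell became 23. The 3 from morula to blastocyst became 6 without morula gradient B and 1 without blastocyst gradient B, and the 2 from MII to 2-cell became 1 without MII gradient A, MII gradient B or 2-cell gradient A. From 2-cell to 8-cell 4 carriers rose and 7 fell in both transcriptome and pools, and no carrier was called in opposite directions in any transition. The matching shares over all genes were not counted, so these joint counts cannot be set against other genes.

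**Figure D5:**
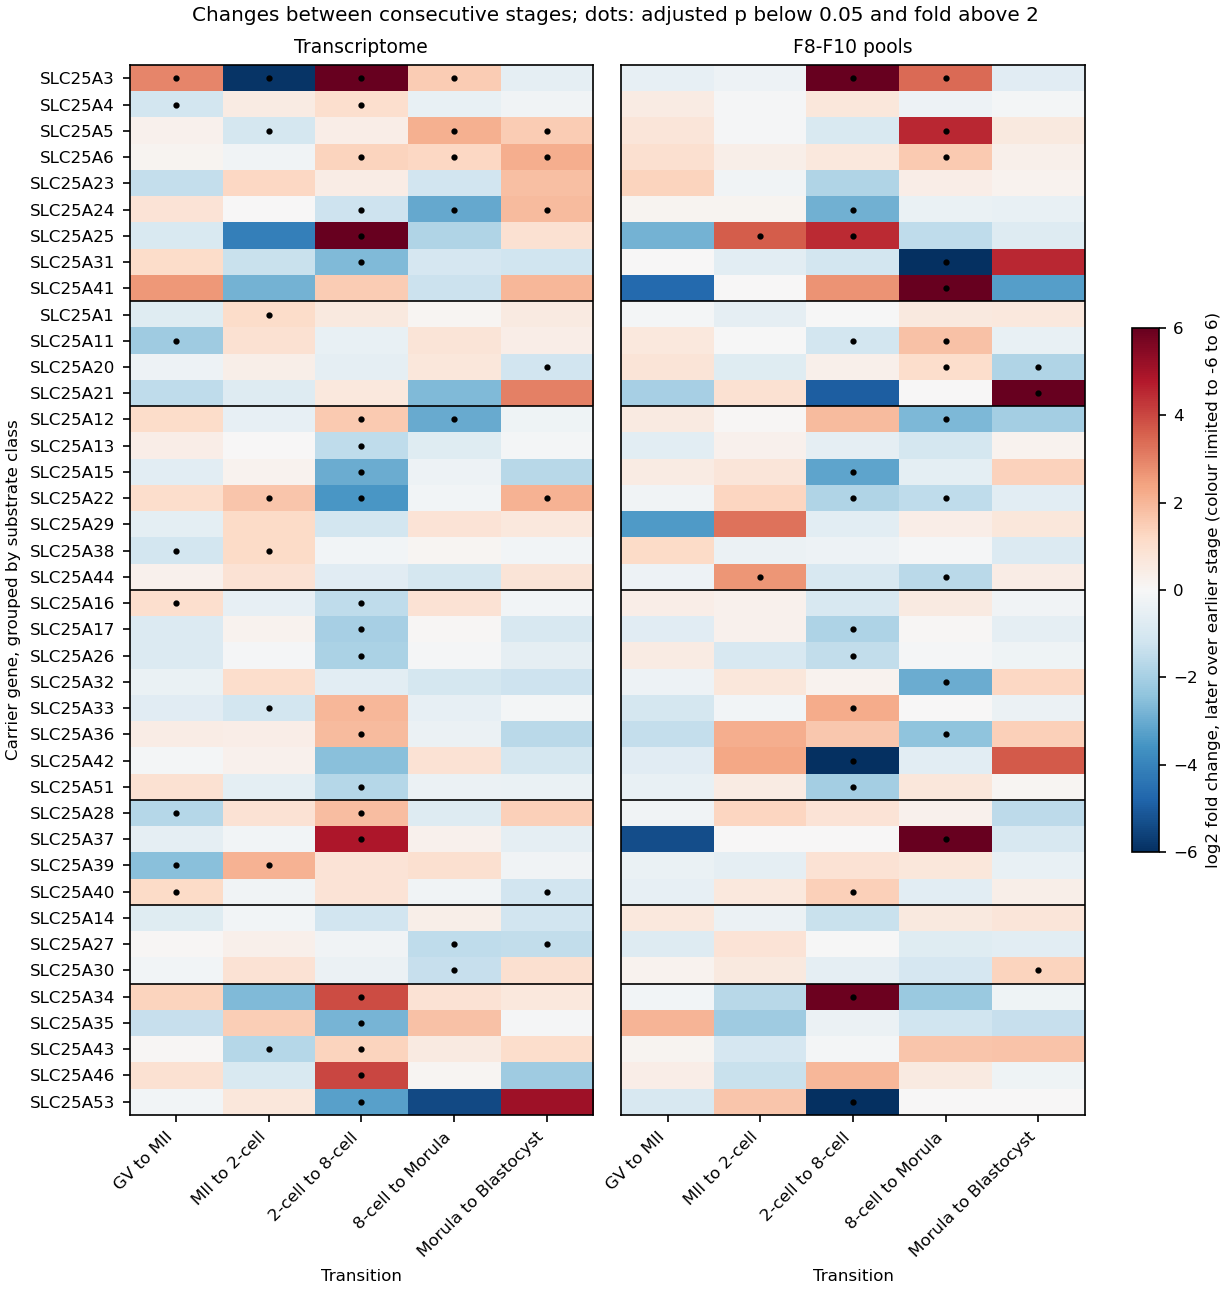
Log2 fold change of 40 of the 41 tested SLC25 carriers between consecutive stages, in the transcriptome on the left and in the F8-F10 pools on the right, with colour limited to 6 in either direction and dots for adjusted p below 0.05 with a fold above 2. The 2-cell to 8-cell column holds 23 dots in the transcriptome and 14 in the pools, and the GV to MII column holds 8 and 0.

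During maturation from GV to MII the transcriptome of several carriers fell while their pools were not called. SLC25A39 fell by 2.51 ± 0.37 on the log2 scale (adjusted p = 2.33e-05), and SLC25A11, SLC25A28, SLC25A38 and SLC25A4 were among the others that fell. The SLC25A28 call was lost without any 1 of the 6 transcriptomes and the SLC25A4 call with RLE size factors, with DESeq2 and without MII transcriptome C. SLC25A3 rose by 2.91 ± 0.42 (adjusted p = 1.53e-05) in the transcriptome, where SLC25A16 and SLC25A40 rose too, the SLC25A40 call being lost without any 1 of the 6 transcriptomes. From MII to 2-cell SLC25A39 rose by 2.09 ± 0.37 (adjusted p = 0.000399) and SLC25A3 fell by 5.86 ± 0.53 (adjusted p = 1.25e-07). In the pools SLC25A44 rose by 2.64 ± 0.51, from 37.0 and 29.8 to 184 and 232 CPM, and SLC25A25 by 3.61 ± 0.95 (adjusted p = 0.0193), from 0.180 and 0.107 to 2.84 and 0.831 CPM. The SLC25A25 call was lost without either MII gradient and without 2-cell gradient A.

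Around the 8-cell stage, when the bovine embryonic genome becomes active, carriers went both ways. In the transcriptome SLC25A22 fell by 3.49 ± 0.55 (adjusted p = 1.29e-05), from 13.5, 17.6 and 30.1 to 1.54, 1.34 and 2.52 CPM, and SLC25A17, SLC25A26, SLC25A31 and SLC25A51, the NAD carrier, were among the others that fell. SLC25A33, a pyrimidine nucleotide carrier, rose by 1.97 ± 0.37 in the transcriptome and by 2.23 ± 0.45 in the pools. The transcriptomes of SLC25A46, an outer membrane protein that acts in mitochondrial fission, rose from 0.913, 1.12 and 0.376 to 17.99, 11.6 and 10.003 CPM, while its 8-cell pools held 0 and 3.33 CPM. SLC25A53 had 2.75 and 10.9 CPM in 2-cell pools and no count in 8-cell pools, at least 55.4-fold lower. SLC25A42, the coenzyme A carrier, had 4.98 and 11.9 CPM in 2-cell pools and 2 counts in all in 8-cell pools, a ratio of 259 with a counting interval of 71.7 to 2139.

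From 8-cell to morula SLC25A24 fell by 3.06 ± 0.56 (adjusted p = 0.000564) and SLC25A12 by 3.03 ± 0.69 in the transcriptome, where SLC25A5, SLC25A3 and SLC25A6 rose. The pools of SLC25A37 rose from no count to 8.05 and 19.0 CPM, at least 110-fold, and those of SLC25A41 from 2 counts to 14.9 and 2.65 CPM, a ratio of 269 with a counting interval of 74.4 to 2218. SLC25A11 pools rose by 1.78 ± 0.40, from 204 and 137 to 636 and 529 CPM. From morula to blastocyst SLC25A20 fell by 1.83 ± 0.33 (adjusted p = 0.000995) in the pools, from 288 and 182 to 84.8 and 47.8 CPM, and by 1.13 ± 0.27 in the transcriptome. The pool call was lost with F9 and F10 pooled and in a fit of the pools alone (log2 -1.81 to -1.72), and the transcriptome call without morula transcriptome C. SLC25A30, a carrier of the uncoupling protein-like group, rose by 1.34 ± 0.43 (adjusted p = 0.0399) in the pools, from 25.6 and 13.9 to 43.1 and 56.6 CPM, a call lost without morula gradient B or either blastocyst gradient. SLC25A21 pools were at 0 and 0 CPM in morulae and at 0 and 12.1 CPM in blastocysts, so that rise rested on 1 gradient. SLC25A27 fell by 1.49 ± 0.52 (adjusted p = 0.0414) in the transcriptome, from 3.08, 6.62 and 6.68 to 2.65, 1.45 and 1.80 CPM, and the call was lost with RLE size factors, without the filter on low counts and without morula transcriptome B or C or blastocyst transcriptome B or C.

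A fit of the pools alone ended further polysome calls, those of SLC25A25 from MII to 2-cell, SLC25A11, SLC25A26 and SLC25A40 from 2-cell to 8-cell, SLC25A12, SLC25A20 and SLC25A37 from 8-cell to morula, and SLC25A30 from morula to blastocyst. Of these, SLC25A25, SLC25A11, SLC25A40, SLC25A20 and SLC25A30 also lost the call with F9 and F10 pooled. In the transcriptome, RLE size factors ended the calls of SLC25A28 from GV to MII, SLC25A12 from 2-cell to 8-cell and SLC25A40 from morula to blastocyst. Leaving out the filter on low counts ended the last 2 of these and the calls of SLC25A40 from GV to MII and SLC25A5 from MII to 2-cell, and in the pools that of SLC25A30.

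The difference between the change in pools and the change in the transcriptome was tested for each transition. From GV to MII it was positive for 5 carriers and negative for 1 (7.14% and 3.5% of all genes), from MII to 2-cell for 2 and 1 (0.725% and 1.08%), from 2-cell to 8-cell for 1 and 4 (3.45% and 8.72%), from 8-cell to morula for 5 and 1 (7.06% and 5.41%), and from morula to blastocyst for 2 and 3 (6.04% and 6.24%). SLC25A11, SLC25A38, SLC25A39 and SLC25A4 were among the 5 positive carriers from GV to MII and SLC25A3 was the negative one. These counts depended on single libraries. The 6 calls from GV to MII became 2 without GV gradient A, and the 3 from MII to 2-cell became 1 without 2-cell gradient A. The 5 from 2-cell to 8-cell became 2 without any 1 of the 5 2-cell libraries or 8-cell transcriptome A, 3 without 8-cell gradient A or transcriptome B, and 11 without 8-cell gradient B. The 6 from 8-cell to morula became 12 without 8-cell gradient B, 10 without morula gradient B, and 3 without 8-cell transcriptome A or morula transcriptome B. The 5 from morula to blastocyst became 3 without morula gradient A, morula transcriptome B, blastocyst gradient B or blastocyst transcriptome A, 2 without blastocyst transcriptome C and 1 without morula transcriptome C.

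Genes that work beside the carriers were followed as lists. Of 4 tested family members named outside the SLC25A symbols, MTCH1, a relative of the carriers in the outer membrane, was higher in the pools from GV to morula (log2 fold change 4.37 at GV), UCP2, an uncoupling protein, at 5 stages (4.40 at GV), MTCH2 at 3, and UCP3 was lower in morulae. Of 10 tested genes that import carriers, 4 or 5 were higher and 2 or 3 lower at each stage, with medians between 0.35 and 1.30. The share of these genes that were lower lay near that of all genes, 17.7% to 31% by stage, and the share that were higher lay above 20% to 30.8%. TOMM40, the channel of the outer membrane, and TIMM22 and TIMM29 of the TIM22 complex were higher at all 6 stages, with log2 fold changes of 6.15 for TOMM40 and 5.23 for TIMM29 at MII. TOMM70, the receptor for carrier precursors, and TIMM9, a chaperone of the intermembrane space, were lower at all 6, with -2.27 and -3.25 at MII. Among 18 other proteins that move solutes across the mitochondrial membranes, 1 was higher and 7 lower at GV, 5 and 5 at MII and at 2-cell, 4 and 7 at 8-cell, 4 and 2 in the morula, and 6 and 0 at the blastocyst stage. Of all genes 22.2% were higher and 17.7% lower at GV, 30.8% and 26.7% at MII, and 29.1% and 21.9% at 2-cell. At 8-cell the shares were 28% and 31%, in morulae 26.5% and 25.2%, and at the blastocyst stage 20% and 20.1%. The counts at MII, 2-cell and 8-cell thus lay near the background, and so did that of higher genes in morulae. The outer membrane channels VDAC1 and VDAC2 were lower in the pools from GV to 8-cell, with log2 fold changes of -1.09 and -1.57 at GV and -2.84 and -3.07 at 8-cell.

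The 4 carriers that did not pass the filter were at or near 0. SLC25A2, an ornithine carrier, had counts in 7 of 30 libraries and at most 0.358 CPM, SLC25A45 in 7 and at most 0.720 CPM, SLC25A47 in 3 and at most 0.207 CPM, and SLC25A48 in 5 and at most 0.531 CPM. SLC25A45 was the one of them with enough counts for the comparison of heavy and light pools, where it was not called. SLC25A10, SLC25A18 and SLC25A52 were not analysed here.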

How the data were processed

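RNA of oocytes and embryos at 6 stages was sequenced as 120 gradient fractions and 18 transcriptomes. The authors made the libraries with a Smart-seq2 type kit, estimated counts with Salmon (version not given in the sources used here) on the Ensembl bovine annotation, with UMD3.1 named in the submitters' processing notes and ARS-UCD in the methods, and deposited 1 table of expected counts for 16706 symbols, without normalization. Of the values 11.7% were not whole, and all were rounded. The symbols of all 45 members matched a RefSeq gene table, and 0 columns were unmapped. Strand was not stated, so overlapping genes cannot be told apart, and neither can reads shared between near-identical carriers or pseudogenes.

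F8 to F10 were summed per gradient. One edgeR 4.0.16 quasi-likelihood model (R 4.3.3; TMM; filterByExpr; 12 groups, 30 libraries) gave log2 fold changes, standard errors taken as the fold change over the square root of F, and two-sided p-values adjusted by Benjamini-Hochberg over all 14612 genes. Calls needed adjusted p below 0.05 and, for transitions, a fold above 2. A second model of 24 pools compared F8 to F10 with F3 to F5. Where 1 group had no count, bounds used a floor of 3 counts per library, which covers counting error only. The model was tested on simulated data.

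Carriers described by library were the 2 called members with the largest change in each direction at each stage whose groups did not overlap, the first in each direction per transition, the largest differences between changes, and a fixed list of 15 carriers with roles written by hand, and others named beside them were chosen after their values were seen. The values of 1 member, which stays in the counts, are not reported here. The members and lists were chosen with earlier results of these data known. The labels do not state that a letter pairs a gradient with a transcriptome, and the main fit did not pair them. Over 12 pairs of the same letter the correlation of deviations from the group means ran from -0.07 to 0.04. The 2 pools of a stage deviate by equal amounts in opposite directions, so these pairs are not independent. The authors took the transcriptome samples from the batches used for the gradients, and the correlations cannot show whether a letter marks a shared batch. None of 78 replicate pairs held identical values. Alternatives covered the test (DESeq2 1.42.0, likelihood ratio), RLE size factors, the filter, pooling, a replicate block and each left-out replicate. No sequence or coordinate was used.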

Additional observations from a re-analysis of the deposited data

Results flagged for a closer look

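Changes of the 11 carriers given here between stages differed between the F8-F10 pools and the transcriptome in the test of that difference (edgeR quasi-likelihood interaction, adjusted p below 0.05), given here as the log2 change in pools minus that in the transcriptome. Neighbouring transitions share the libraries of the stage between them. No explanation was tested.

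From GV to MII the difference was 2.74 ± 0.52 (SE, adjusted p = 0.000948) for SLC25A11 and -3.41 ± 0.64 (adjusted p = 0.000859) for SLC25A3. The SLC25A3 transcriptomes went from 2.28, 1.85 and 1.32 to 12.8, 16.6 and 12.01 CPM while its pools stayed between 0.676 and 3.35 CPM, and the call was lost without GV gradient A. From MII to 2-cell it was 5.58 ± 0.74 (adjusted p = 0.000291) for SLC25A3, -2.64 ± 0.56 (adjusted p = 0.0164) for SLC25A39 and 7.73 ± 1.81 (adjusted p = 0.0309) for SLC25A25. The SLC25A39 call was lost without MII gradient A or either 2-cell gradient.

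From 2-cell to 8-cell the difference was -5.36 ± 1.58 (adjusted p = 0.0288) for SLC25A25 and -6.68 ± 2.15 (adjusted p = 0.0483) for SLC25A53. From 8-cell to morula it was 10.66 ± 2.17 (adjusted p = 0.00274) for SLC25A37, 8.91 ± 2.54 (adjusted p = 0.0239) for SLC25A41 and -9.54 ± 1.40 (adjusted p = 0.000119) for SLC25A31. From morula to blastocyst it was 5.69 ± 1.70 (adjusted p = 0.0306) for SLC25A31, 3.04 ± 0.99 (adjusted p = 0.0450) for SLC25A36, -2.99 ± 0.88 (adjusted p = 0.0281) for SLC25A28 and -2.68 ± 0.81 (adjusted p = 0.0315) for SLC25A22. The values of SLC25A25, SLC25A31, SLC25A37, SLC25A41 and SLC25A53 rest on groups with 0 to 3 counts, so they depend on the prior count of the fit and are no bounds. Calls that a single left-out library ended, beside those above, were SLC25A25 in both transitions, SLC25A53, SLC25A41, SLC25A36, SLC25A28, SLC25A22 and SLC25A31 from morula to blastocyst.

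Several of these values moved by more than 1.5 times. Without blastocyst gradient B the difference from morula to blastocyst was 1.18 for SLC25A31 and 1.001 for SLC25A36. Without morula gradient B it was 5.68 for SLC25A36 and -1.26 for SLC25A22. Without 8-cell transcriptome A the value of SLC25A53 was -1.28, and from GV to MII that of SLC25A3 was -1.84 without GV gradient A and -2.21 with F9 and F10 pooled. Pooling F9 and F10 also ended the calls of SLC25A25 in both transitions, SLC25A53, SLC25A22 and SLC25A36, and leaving out the filter on low counts that of SLC25A53.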

How the results depend on the processing

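RLE size factors in place of TMM moved the median log2 fold change of all genes by -0.24 to 0.12, and reversed no carrier. Of 1003 values under other settings for 152 results, 879 kept direction and side of the threshold, 118 lost the call and 6 reversed. The 6 came from pools of F3 to F5 in place of F8 to F10, an alternative added after the data were seen, against the transcriptome: log2 fold changes were 0.51 for SLC25A16 and -0.11 for SLC25A4 at GV, 0.55 and 2.23 for SLC25A37 at MII and 2-cell, and -1.09 and -1.07 for SLC25A5 in morulae and blastocysts. Of 880 leave-one-out values 172 lost the call and 0 reversed, and where 1 pool was left in a group its spread was assumed to equal that of the other groups.

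The replicate block treats libraries of the same letter as paired, which the labels do not state. With it, pools against transcriptome called 7 carriers at GV, 15 at 2-cell, 16 at 8-cell, 14 in morulae and 11 in blastocysts. The main fit called 17, 24, 27, 23 and 18 at these stages. With the block the difference between changes called 0 in each of the 5 transitions in place of 6, 3, 5, 6 and 5. Fits of libraries of 1 kind called 14 and 19 carriers in the last 2 transcriptome transitions (main 7 and 8), and 0, 7, 5 and 0 in the last 4 polysome transitions (main 2, 15, 13 and 3). In polysome transitions the likelihood ratio test called 3 and DESeq2 2 from GV to MII, both called 5 from morula to blastocyst, and pools of F9 and F10 called 1 there. For the difference between changes the likelihood ratio test called 5 and DESeq2 7 from MII to 2-cell, DESeq2 called 8 from morula to blastocyst, and pools of F9 and F10 called 1 from 2-cell to 8-cell and 3 from morula to blastocyst. For F8 to F10 against F3 to F5, DESeq2 called 1 at GV, 1 at 2-cell, 13 at 8-cell, 8 in morulae and 5 in blastocysts, the likelihood ratio test 8, 6 and 5 at the last 3 stages, no replicate block 2 in morulae, and RLE 0 in blastocysts.

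Leaving out 1 replicate gave 4 to 7 (GV to MII), 2 to 6 (MII to 2-cell) and 3 to 9 (morula to blastocyst) transcriptome calls, 1 to 2 (MII to 2-cell), 14 to 23 (2-cell to 8-cell) and 1 to 6 (morula to blastocyst) polysome calls, and 2 to 6, 1 to 3, 2 to 11, 3 to 12 and 1 to 6 calls of the difference between changes in order of development. Heavy against light pools gave 0 to 6 calls at 8-cell, 0 to 5 in morulae and 0 to 0 in blastocysts. Each stage had 2 pools and 3 transcriptomes, which limits the precision of each value.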
